A study of Mus musculus with 18 samples.

Results

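The regions described here are stretches of accessible chromatin that were listed as peaks in mouse myoblasts and in myocytes of both genotypes, and whose peak was weaker in both myocyte lists. They were chosen by their peak strength. Peaks of the 4 deposited lists on chromosomes 1 to 19 were merged where they overlapped by 1 bp or more, and merged regions under 2000 bp with a peak of every list were kept. The highest fold enrichment per list was taken, and a region was kept where the lower of the 2 myoblast values was at least 25% above the higher of the 2 myocyte values. The fold enrichment is the read pileup at the summit of a peak over its local background, as given by the authors' peak caller. Of 63011 shared regions, 151 met this rule, a share of 0.24%, and they are called weakened regions. The same rule with the stages exchanged took 9525 regions, or 15.1%, which are called strengthened regions. The folds chose the regions, and the reads at the summit are part of each fold. No fold or read number below is therefore support for a loss of accessibility, and none was tested.

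The 12 ATAC-seq samples came from skeletal muscle cells of wild-type and MyoD-null mice, the latter labelled as a MyoD knockout. There were 3 samples each of wild-type myoblasts, MyoD-null myoblasts, wild-type myocytes and MyoD-null myocytes, and both myocyte groups had undergone 24 h of myogenic differentiation. Each group was deposited as 1 peak list from merged reads, so a value describes a list and has no error between replicates, and no comparison between groups could be tested. The series' 6 RNA-seq samples, from the C2C12 line of mouse myoblasts, were not analysed here. Values of the 4 lists are always given in the order wild-type myoblasts, MyoD-null myoblasts, myocytes deposited as wild type, myocytes deposited as MyoD-null.

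In ATAC-seq a transposase cuts open DNA and inserts sequencing adapters there, so promoters, enhancers and other sites free of nucleosomes collect reads. Myoblasts are the proliferating precursors of skeletal muscle, and myocytes are cells that have left the cell cycle and begun to differentiate before they fuse into fibres. MyoD is a basic helix-loop-helix transcription factor that binds E-box sequences, can act on closed chromatin and directs cells into the muscle lineage. Enhancers of the precursor state can lose accessibility during differentiation while enhancers of muscle genes gain it.

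The genotypes of both myocyte lists were recorded in opposite ways. Peak names in the list deposited as wild-type myocytes read MKO-DM, and those in the list deposited as MyoD-null myocytes read WT-DM, while the names of both myoblast lists matched their labels. The rule treats both myocyte lists alike, so the same 151 regions result under either reading. Only the myocyte lists carry a further prefix in their peak names, so a difference between stages and one in how the data were handled cannot be told apart. The lists held 96420, 100192, 109753 and 86575 peaks on chromosomes 1 to 19. Their genome-wide background, the mean number of reads per position, was 8.18, 8.54, 5.29 and 6.34, and the lowest summit listed had 20, 21, 15 and 17 reads. The background, and with it the number of reads a summit needed, was lower in both myocyte lists. Coordinates are in build mm9. Genes, motifs and the marker genes of the labelled cell type need a genome or annotation of that build and were not analysed here.

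The weakened regions were of middling strength in myoblasts and weak in myocytes. Their median folds were 5.01, 5.03, 3.50 and 3.41, beside 4.36, 4.40, 5.82 and 5.04 over all shared regions. Placed by fold among all shared regions, their medians stood at percentiles 64.5, 64.1, 10.7 and 14.4. In reads the medians were 53, 56, 26 and 29 at the summit, beside 55, 59, 61 and 56. A typical weakened region therefore had about as many summit reads in myoblasts as the median shared region and far fewer in myocytes. Since summit reads enter the fold that chose the regions, this is no separate observation.

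The differences were small. The ratio of the lower myoblast fold to the higher myocyte fold had a median of 1.31 in the weakened regions and 0.72 in all shared regions. It exceeded 1 in 2570 of the 63011, or 4.08%. Only 10 regions reached 1.5 and none reached 2, whereas 67 strengthened regions reached 2 in the other direction. Dividing each list by its own median fold over the shared regions, which places the middle of all shared regions at no change, raised the number past the limit from 151 to 1995 and lowered the strengthened regions from 9525 to 1645. The rarity of weakened regions is thus a statement about folds as deposited.

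**Figure D1:**
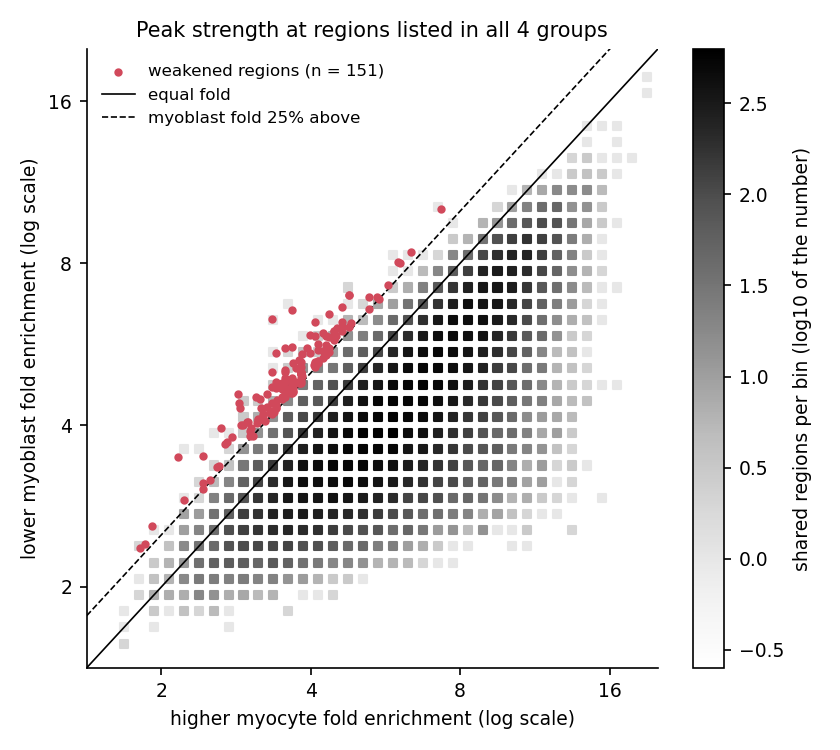
Each shared region's lower myoblast fold enrichment against its higher myocyte fold enrichment, both on log scales, with grey squares for the number of shared regions per bin and red points for the 151 weakened regions above the dashed line of a myoblast fold 25% higher. The red points form the upper fringe of a cloud whose median ratio is 0.72, and 10 of them lie at a ratio of 1.5 or more.

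Few regions separate the set from its surroundings. Just inside the limit was chromosome 6, 128544662 to 128545099, and just outside it was chromosome 11, 108986780 to 108987343, with folds of 6.27, 6.0, 4.80 and 4.46. The next outside were chromosome 17, 67696306 to 67696813, with folds of 4.87, 4.97, 3.34 and 3.90, and chromosome 2, 112282920 to 112284242, with folds of 9.47, 10.4, 6.89 and 7.60. Single reads decide membership at this depth. At the genome-wide background 1 read is worth a fold of 0.109, 0.105, 0.159 and 0.136. With 1 read more at the summit in both myocyte lists 103 regions would have remained, with 3 more 40, and with 5 more 16. With 1 read fewer there would have been 227, and with 5 fewer 1052.

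A fold is lower where the summit holds fewer reads or where its surroundings hold more. The deposited fold and p value of a peak together fix both numbers, and both were recovered for every peak. Summit reads plus 1 were then divided by the genome-wide background plus 1 of the same list, which gives scaled reads that ignore the surroundings. This divided the 151 regions into kinds, a split chosen after the values were seen. In 94 regions, or 62.3% (95% Wilson interval 54.3 to 69.6), the scaled reads of both myoblast lists were also at least 25% above those of both myocyte lists, which was true of 0.302% of all shared regions. Choosing regions by fold itself favours such reads. In 20 regions they were above by less. In 27 the myoblast and myocyte values overlapped, and in 10 both myocyte lists had more scaled reads than both myoblast lists. So 37 of the weakened regions, or 24.5%, had scaled summit reads that were not lower in both myocyte lists. Over all shared regions this was the usual state, at 97.3%, and the last 3 kinds made up 2.38%, 30.1% and 67.3% of them. All intervals given cover counting error alone.

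**Figure D2:**
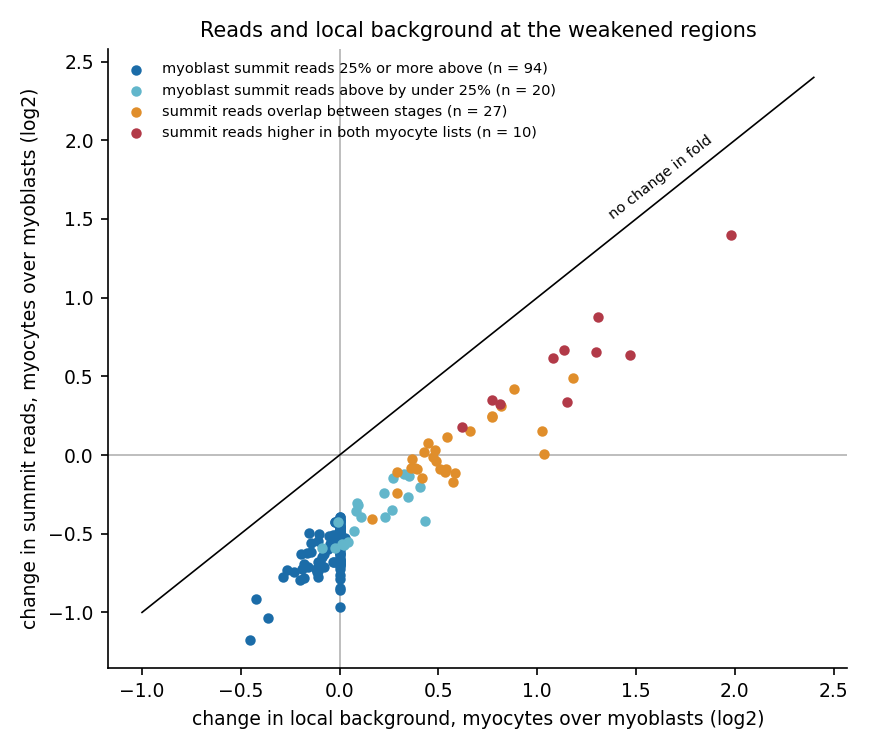
Change of the local background (horizontal axis) and of the summit reads (vertical axis) from myoblasts to myocytes, in log2 of the values scaled to each list's genome-wide background and averaged over both lists of a stage, for the 151 weakened regions, with colours for the 4 kinds and a diagonal for an unchanged fold. The 94 regions with fewer reads gather at a background change near 0, and the 10 regions with more reads lie to the right, where the background was higher by more than the reads.

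Many of the 94 regions with fewer reads had a flat background and no close neighbour. Their median summit reads were 51, 54, 22.5 and 25, and their median folds 5.37, 5.45, 3.66 and 3.54. In 50 of the 94 the local background was the genome-wide one in all 4 lists, against 10.4% of all shared regions. In the others it reached at most 1.81 times the genome-wide value in myoblasts and 1.70 times in myocytes. Of the 94, 30, or 31.9% (23.4 to 41.9), had another listed region within 5 kb, against 61.0% of all shared regions. The highest scaled reads of such a neighbour had medians of 3.56 in myoblasts and 3.74 in myocytes. Each stage was taken by itself, over both of its lists, and counted as 0 where it had no listed neighbour. Fold and scaled reads are equal where the background is flat, so passing both limits favours flat backgrounds. Neighbours add to the background, so these shares partly describe how the 94 were chosen and are no separate observation.

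The 27 regions with overlapping reads and the 10 with more myocyte reads lay in busier surroundings. The median local background of the 27, scaled to the genome-wide value of each list, was 1.45, 1.46, 2.62 and 1.96, and it was higher in both myocyte lists than in both myoblast lists in 23 of them, against 47.2% of all shared regions and 41 of the 151 weakened ones. In the 10 it was 2.11, 1.98, 6.21 and 4.46, and higher in all 10, as it must be where the folds were chosen to be lower and the reads are higher. Their median scaled reads were 9.10, 9.12, 17.7 and 13.8. Of these 37 regions, 35 had another listed region within 5 kb, or 94.6% (82.3 to 98.5). The highest scaled reads of such a neighbour had medians of 6.97 in myoblasts and 16.2 in myocytes. In 34 of the 35 the myocyte value was at least 25% higher, against 76.3% of the shared regions that have such a neighbour. These 34 include cases with no listed neighbour in myoblasts, such as 0 against 9.95 at chromosome 14, 31602620 to 31603034. Reads of a neighbour are part of the local background, so these numbers describe the same signal from 2 sides. Since the fold is the ratio of reads to background, a lower fold with reads that are not lower implies a higher background, so these backgrounds describe how the 37 were chosen and are no separate observation.

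Counting error alone was wide at these depths. Exact Poisson 95% intervals of the summit reads, scaled in the same way, placed both myoblast lists above both myocyte lists in 0 of the 151 regions and in 1 of all shared regions, which is 0.00159%. No weakened region was therefore separated between stages by its reads in all 4 lists.

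The region with the highest ratio, 1.89, lay at chromosome 13, 111196381 to 111196863. Its folds were 7.19, 6.30, 3.34 and 3.29, so both myoblast values were far above both myocyte values. Its summit reads were 71, 61, 52 and 43 over local backgrounds of 9.02, 8.84, 14.9 and 12.4. It is one of the 27 with overlapping scaled reads. The highest scaled reads of a neighbour within 5 kb were 2.83 in myoblasts and 7.32 in myocytes.

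The next, at chromosome 4, 55888009 to 55888680, had a ratio of 1.79 and differed in kind. Its folds were 6.54, 7.55, 3.66 and 3.54. The summit held 59 reads in wild-type myoblasts (exact Poisson interval 44.9 to 76.1), 71 in MyoD-null myoblasts (55.5 to 89.6), 22 (13.8 to 33.3) in the wild-type myocytes as deposited and 25 in the others (16.2 to 36.9). The background was the genome-wide one in all 4 lists, so the fold and the reads tell the same story here. The read intervals given are unscaled. Scaled to the genome-wide background of each list as above, those of the 2 stages overlapped. Another weakened region lay within 100 kb, at chromosome 4, 55788666 to 55789362, with folds of 5.66, 5.03, 3.34 and 2.86 and reads of 51, 47, 20 and 20. Also in this window, the region at 55542958 to 55544917 was the widest of all with 1960 bp, and its folds of 3.16, 3.71, 2.51 and 2.23 came from 121, 140, 120 and 102 reads. These 3 regions made this 1 Mb stretch of chromosome 4 one of the 2 windows with the most weakened regions. It held 35 shared regions, 4 of them strengthened.

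The other window with 3 weakened regions was on chromosome 7, where all 3 lay within 13.2 kb. The first, at 19881100 to 19881519, had folds of 4.57, 4.87, 2.52 and 2.85 from 77, 84, 99 and 81 reads. In the second, at 19886009 to 19887762, folds of 2.80, 2.59, 1.72 and 1.92 came from 60, 58, 122 and 103 reads. The third, at 19892638 to 19894338, had folds of 3.49, 3.99, 2.16 and 2.11 from 138, 170, 148 and 132 reads. None of the 3 had fewer scaled reads in myocytes than in myoblasts. Their local backgrounds, at 16.1 to 41.8 in myoblasts, stood at 27.8 to 70.4 in myocytes. All 3 are among the 10 regions with more myocyte reads, and the summits of the second were spread over 1045 bp, so its lists need not refer to the same site.

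Elsewhere, high ratios mostly came with fewer reads. At chromosome 14, 98989100 to 98989479, the folds were 5.45, 5.45, 3.02 and 3.41 and the reads 49, 51, 18 and 24. At chromosome 6, 127479416 to 127479953, they were 5.56, 5.66, 3.34 and 3.54, with 50, 53, 20 and 25 reads. Both regions had near-equal myoblast folds and no overlap with the myocyte folds. A region at chromosome 14, 123392024 to 123392499, had folds of 4.68, 4.40, 2.86 and 2.73, and one at chromosome 13, 4244408 to 4244878, had 6.21, 6.50, 3.82 and 4.09. The region at chromosome 9, 34996301 to 34996816, had folds of 5.66, 5.58, 3.50 and 3.67, with 51, 57, 21 and 27 reads. These have the same shape, a myoblast peak of roughly equal height in both genotypes and a lower one in both myocyte lists. The other 2 of the 12 highest were different. The region at chromosome 2, 117950976 to 117951447, had folds of 4.60, 3.95, 2.13 and 2.63 from 64, 54, 46 and 49 reads over backgrounds of 13.1, 12.9, 21.1 and 18.0. The region at chromosome 4, 11643309 to 11643935, had folds of 4.47, 4.30, 2.88 and 2.86 from 40, 40, 26 and 21 reads, and its scaled reads were lower in both myocyte lists by less than 25%.

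**Figure D3:**
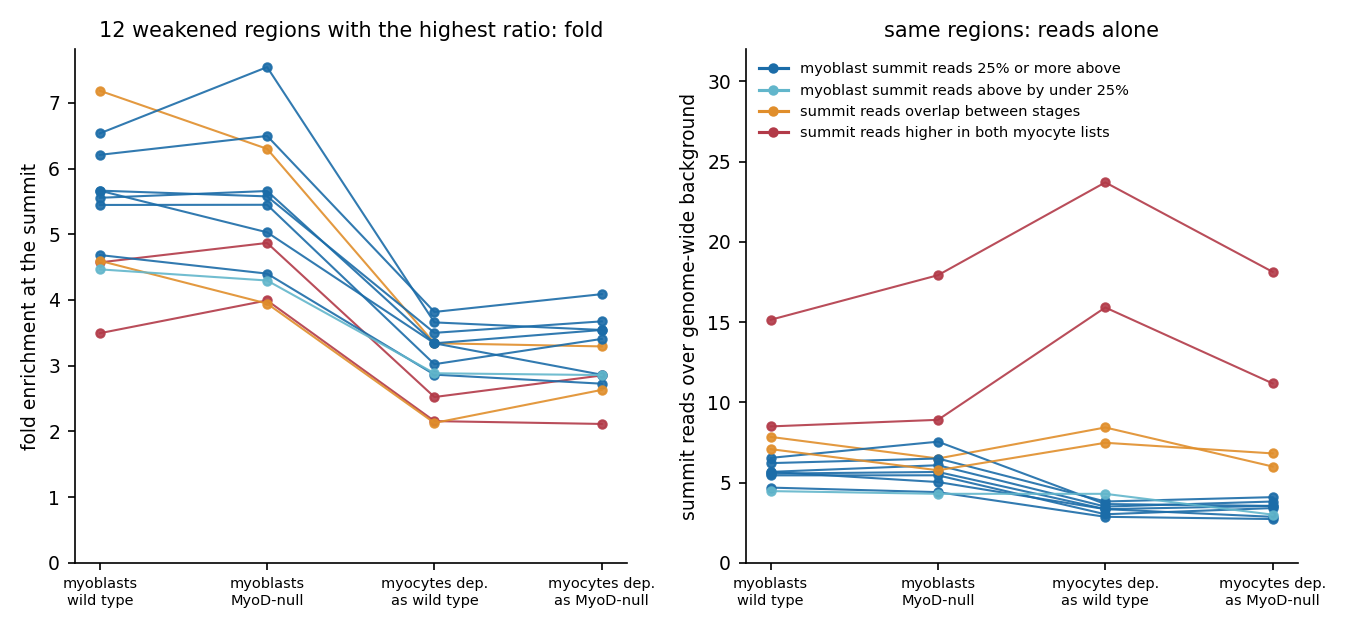
The 12 weakened regions with the highest ratio in the 4 lists, as fold enrichment (left) and as summit reads over the genome-wide background (right), with 1 line per region and colours for the kinds. All 12 lines fall on the left by the choice of the regions, whereas on the right the lines of the pair of chromosome 7 regions among the 12 rise to between 11.2 and 23.7 in myocytes.

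By myoblast strength, 42 of the weakened regions, or 27.8%, were among the upper 25% of the shared regions in the wild type, and 43, or 28.5%, were in the MyoD-null list. The highest myoblast folds were at chromosome 17, 70021581 to 70022357, with 10.2, 10.1, 7.32 and 6.81 from 95, 99, 45 and 49 reads. This is the only weakened region with folds above 10 in both myoblast lists, and its myocyte folds were above the median of all shared regions in both myocyte lists. Next came chromosome 5, 29230967 to 29231511, with folds of 8.39, 8.68, 6.36 and 5.59 and reads of 76, 87, 39 and 40. The region at chromosome 2, 75480835 to 75481892, had folds of 8.14, 8.05, 5.78 and 6.0 but reads of 135, 136, 152 and 149, and is one of the 10 with more scaled reads in myocytes. Chromosome 2, 9515388 to 9516129, had folds of 8.0, 8.28, 6.05 and 5.04, and chromosome 1, 130556219 to 130557253, had 7.30, 7.83, 5.73 and 5.72. At chromosome 10, 92300315 to 92301095, they were 6.97, 7.96, 4.77 and 3.54. Apart from the chromosome 2 region with more myocyte reads, these strong members had roughly 2 times as many reads in myoblasts, whose backgrounds were also higher.

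Weakened regions were most frequent at middle strength. Where the lower myoblast fold was 4 to 5, 64 regions or 0.454% were weakened, and at 5 to 6 the count was 45 or 0.505%. At 6 to 7 it was 17, 0.314%. Below 3 it was 4 regions, 0.0421%, from 7 to 8 it was 2, 0.0646%, and at 8 or more it was 3, 0.126%. The lower myoblast fold is part of the ratio that chose the regions, so these shares are no separate observation. A region too weak to be listed in a myocyte list is by definition not a shared region, which limits how many weak myoblast peaks can meet the rule.

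Their regions were also narrow. The median width was 519 bp (95% interval of the median 499 to 597), beside 728 bp over all shared regions and 779 bp over the strengthened ones. Of the 151, 63 were under 500 bp wide, or 41.7%, against 19.2% of the shared regions. The share of weakened regions was 0.536% (0.401 to 0.717) at 400 to 500 bp and 0.0657% (0.0367 to 0.118) at 1000 bp or more. Over all shared regions the median width rose with strength, from 576 bp at lower myoblast folds under 3 to 1051.5 bp at 7 to 8. Within the band from 4 to 5 weakened regions still had a median width of 528.5 bp against 725 bp, and from 5 to 6 it was 516 against 842 bp. The merged width includes the myocyte peaks, whose median widths at weakened regions were 329 and 345 bp against 645 and 571 bp at all shared regions, so the rule and the width are not independent. In myoblasts the widths were 462 and 453 bp against 525 and 500 bp. The narrowest weakened regions measured 271 bp, at chromosome 9, 57364964 to 57365234, and 310 bp, at chromosome 10, 89143278 to 89143587.

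**Figure D4:**
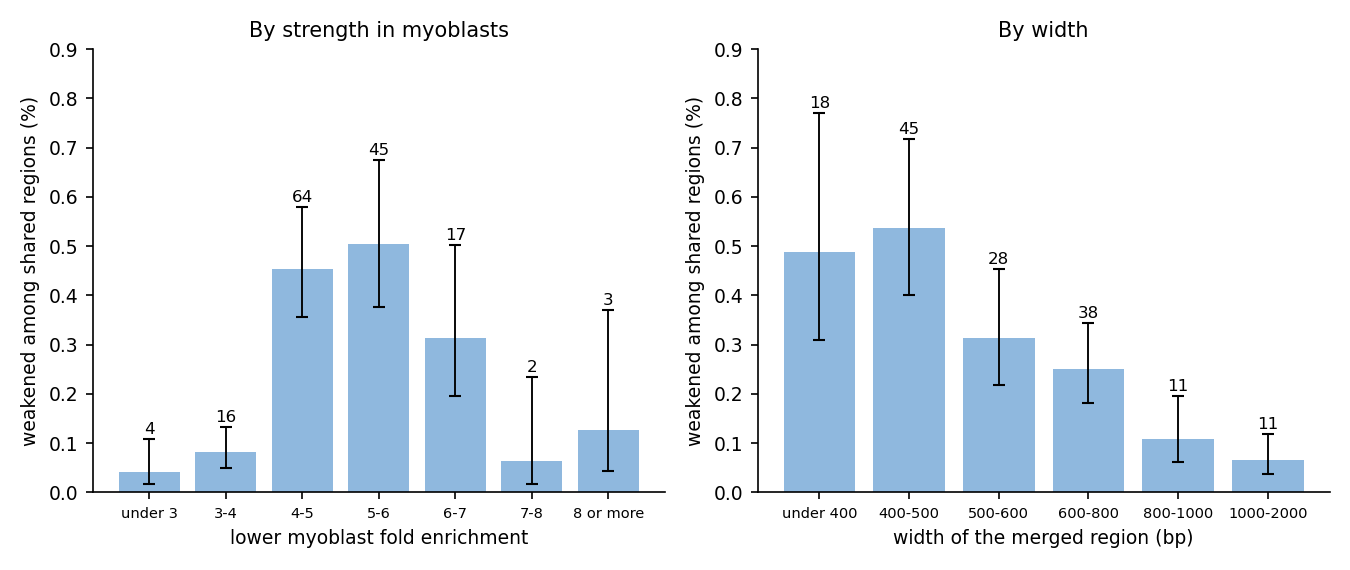
Share of the shared regions that were weakened, in percent, by the lower myoblast fold enrichment (left) and by the width of the merged region (right), with 95% Wilson intervals as error bars and the number of weakened regions above each bar. The share is highest at folds of 5 to 6, at 0.505%, and at widths of 400 to 500 bp, at 0.536%.

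In structure the weakened regions were simple. Exactly 1 peak per list made up 147 of them, or 97.4%, against 92.1% of all shared regions. The weakened regions were narrower, and these shares were not compared at equal width. The summits of the 4 lists spread over a median of 99 bp (84 to 111), beside 91 bp for all shared regions, and lay within 100 bp in 80 regions, or 53.0%, against 55.5%. In the other weakened regions the summits lay further apart, by up to 1045 bp, so there the lists need not mark the same site.

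Both genotypes of myoblasts had nearly the same folds at weakened regions. The wild-type fold was higher in 66 of the 151. The folds were within 25% of each other in 149 regions, or 98.7%, against 91.4% of all shared regions. In none was the wild-type fold at least 25% above the MyoD-null fold, against 3.92% of the shared regions, and in 2 the MyoD-null fold was that far above, against 4.64%. The rule sets a floor under the lower myoblast value and so narrows this spread by itself.

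The widest genotype differences in myoblasts were modest. At chromosome 5, 112162648 to 112163292, the folds were 4.81, 6.23, 3.34 and 3.41. At chromosome 13, 43002365 to 43002732, they were 4.47, 5.66, 3.50 and 3.27. These are the 2 regions with a MyoD-null myoblast fold at least 25% higher. In the opposite direction the largest differences were at chromosome 14, 75298715 to 75299157, with 5.11, 4.11, 2.83 and 3.12, and chromosome 5, 76403719 to 76404379, with 5.88, 4.82, 3.66 and 3.00.

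The myocyte lists differed more. Their folds were within 25% in 134 of the 151, or 88.7%, against 61.2% of all shared regions. The list deposited as wild type was at least 25% above the other in 11 weakened regions, against 30.5% of the shared regions, and the list deposited as MyoD-null was that far above in 6, against 8.35%. The fold of the deposited wild type was higher by any amount in 79 of the 151, or 52.3%, against 69.8%. Here too the rule acts, since it caps the higher myocyte value. The largest differences were at chromosome 1, 175810328 to 175810764, with folds of 5.77, 6.50, 4.45 and 3.27, and in the other direction at chromosome 18, 5520032 to 5520387, with 4.85, 4.58, 2.52 and 3.65. Because of the opposite names, neither direction can be given a genotype.

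Weakened regions were scattered over all 19 autosomes. The share ran from 0.125% on chromosome 5, with 5 regions, to 0.429% (0.233 to 0.788) on chromosome 14, with 10. The median distance to the nearest other weakened region was 3648 kb. Another lay within 1000 kb for 19 of them, or 12.6%, and within 50 kb for 3, all in the chromosome 7 group. Of the windows of 1 Mb that held any, 137 held 1, 4 held 2 and 2 held 3. One of the windows with 2, on chromosome 1, held a region at 74195729 to 74196166 with folds of 5.18, 4.88, 3.18 and 3.54 and one at 74588876 to 74589581 with 4.63, 4.96, 3.54 and 3.68. That window also held 8 strengthened regions among its 76 shared ones.

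The median neighbour of a weakened region had a ratio close to that of shared regions elsewhere. At under 2 kb it was 0.786 over 16 pairs, beside 0.777 around all shared regions. At 2 to 10 kb the median ratio of the neighbouring shared regions was 0.737 over 105 pairs, beside 0.738 around all shared regions and 0.717 around strengthened regions. At 10 to 50 kb it was 0.737 beside 0.726 and 0.712, and at 200 to 1000 kb it was 0.725 beside 0.720 and 0.718. The share of neighbours with a ratio of at least 1, however, was higher close to weakened regions. It was 25% at under 2 kb, against 6.77% around all shared regions, and 12.4% at 2 to 10 kb, against 4.70%. Both shares include a neighbour of the chromosome 7 group that was not itself weakened, at 19894782 to 19895968, with a ratio of 1.21. Of the 105 pairs at 2 to 10 kb, 4 were with another weakened region, all in the chromosome 7 group, and without them the share was 8.91% against 4.52%. At 10 to 50 kb it was 5.37% against 3.92%. Few pairs stand behind the shares under 10 kb, and no interval was computed for them. Neighbours can add to each other's local background, so the 2 ratios of a close pair are not independent.

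**Figure D5:**
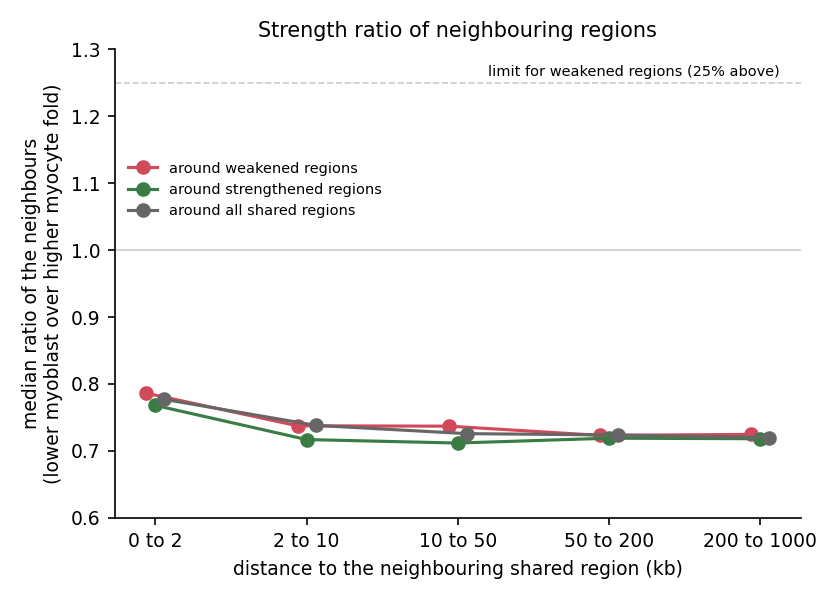
Median ratio of the lower myoblast to the higher myocyte fold enrichment in shared regions at growing distance (kb) from weakened regions (red), strengthened regions (green) and all shared regions (grey), with a dashed line at the limit that chose weakened regions. All points lie between 0.712 and 0.786, far under the limit.

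Regions listed in both myoblast lists and neither myocyte list lay within 50 kb of weakened and of other shared regions about equally often. Of the 6522 such regions, at least 1 lay within 50 kb of 40 weakened regions, or 26.5% (20.1 to 34.0), against 32.3% of all shared regions. Within 10 kb the count was 14, or 9.27%, against 6.79%. Within 250 kb it was 110, or 72.8% (65.3 to 79.3), against 82.2%, and so less frequent. For the 4713 regions listed in both myocyte lists alone the count within 50 kb was 44, or 29.1% (22.5 to 36.8), against 31.9%. Within 250 kb it was 108, or 71.5% (63.9 to 78.1), against 76.4%. Weakened regions had a mean of 4.25 other shared regions within 50 kb, beside 5.62, so shared regions were somewhat sparser around them.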

How the data were processed

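ATAC-seq peaks of 12 samples were used as 4 deposited lists. The submitters' processing notes name mm9, MACS2 and deepTools and give no versions. Per the peak names in the files, peaks were called on merged alignments with a MAPQ30 tag. Not given in the sources used here are the aligner and the caller's settings. The authors deposited a fold enrichment (a ratio), −log10 p and −log10 q per peak, with q of at most 0.01, and a score, which was not used. The deposited summit offset located each summit.

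The 4 lists on chromosomes 1 to 19 were merged at 1 bp overlap and filtered by the rule, a ratio of 1.25 or more. The rule, the regions and the comparison sets were chosen with earlier results of these data known. Summit reads and local background were solved from fold = (reads + 1) / (background + 1) and the Poisson tail probability, which gave whole reads that match the deposited −log10 p within 0.01 for 100% of peaks. The lists were set side by side by fold and by these reads over the genome-wide background. The latter scales each list by its mean reads per position, which also depends on the length given to each read. Named regions were the 12 with the highest ratio, the 6 with the highest lower myoblast fold, the 3 widest and narrowest, those nearest the limit, those in the 3 densest windows, and the extremes between genotypes, of which the leading ones are printed. The split into kinds by reads, the 5 kb neighbours and the median-scaled reads were added after the data were seen. Alternatives were other ratios, median scaling, mean folds, a stricter q, lists of equal length, sex chromosomes, width limits, single peaks and close summits.

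Shares have 95% Wilson intervals, and reads have exact Poisson intervals, both for counting error only. Python 3.11.15 was used with scipy 1.17.1, pandas 2.3.3, statsmodels 0.14.6, numpy 2.4.6 and matplotlib 3.10.9. The scripts were tested on simulated data, where each of 5 known quantities came back within 1 percent. The simulated peaks were built with the same formulas and lay away from the limit, so calls near the limit were not tested.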

Additional observations from a re-analysis of the deposited data

How the results depend on the processing

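The numbers of weakened and strengthened regions were 151 and 9525. A myoblast fold only 10% above gave 811 and 23226, one 50% above gave 10 and 1804, and a 2-fold difference gave 0 and 67. Dividing each list by its median fold gave 1995 and 1645, and all 151 regions were among the 1995. This had to be so, because both myoblast median folds were below both myocyte ones, which raises every ratio. Peaks with q of at most 1e-05 left 99 weakened and 8839 strengthened regions among 57695 shared ones. Lists cut to equal length left 60 and 8666 among 55904. Requiring 1 peak per list with summits within 100 bp left 78 and 4769, and it also lowered the shared regions from 63011 to 32916. Scaled summit reads in place of folds gave 190 and 23242, with 94 of the 151 regions still counted, and the same reads divided by each list's median, added after the data were seen, gave 4611 and 2305, with 126 still counted. The mean fold of a region, the sex chromosomes, width limits and single peaks alone left both numbers within 1.5 times.

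No paired analysis was possible because the 3 samples of each group had been merged before peaks were called, and for the same reason no alternative leaves out a replicate. The planned motif and gene alternatives were not run, since no mm9 genome or annotation was used here.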

Other observations

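Scaled summit reads of both myoblast lists were at least 25% above both myocyte lists in 190 shared regions, and 96 of these were not weakened by fold. Their median fold ratio was 1.05 although their median ratio of scaled reads was 1.32. Their highest scaled local background had a median of 1.4 in myoblasts and 1.04 in myocytes. A lower myocyte background follows from their choice by reads and not by fold, and gives only its size. Their median width was 615.5 bp, beside 541.5 bp for the 94 regions that were weaker by both measures.

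The 1 shared region whose read intervals separated both stages in all 4 lists belongs to these 96, and it was singled out after its values were seen. It lay at chromosome 12, 114514437 to 114515283 (mm9), with folds of 4.36, 4.02, 3.95 and 4.11 in the order used above. Its summit reads were 80, 80, 26 and 32, over local backgrounds of 17.6, 19.1, 5.84 and 7.02. Summit and surroundings were both lower in myocytes, and the fold was nearly the same in all 4 lists.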
